A study of Homo sapiens with 20 samples.

Results

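The core interferon-stimulated effectors studied here are 10 genes, IFIT1, IFIT2, IFIT3, IFIT5, ISG15, IFI6, IFI27, IFI44, IFI44L and MX1. They were chosen by symbol from the 36076 genes of the deposited expression table, and each symbol had 1 row. Human lung cancer cells received decitabine (DAC), a cytidine analog that depletes DNA methyltransferases, at 100 nM for 72 hours and then spent 3 days without the drug, and the Mock cells received PBS. mRNA-seq was available for A549, CL1-0, CL1-5, PC9, H1299 and H1792 (12 libraries) and Omni-ATAC-seq, a measure of open chromatin, for A549, CL1-5, PC9 and H1299 (8 libraries), with 1 library per line and treatment. All are established lines in culture, the labels name no transgene or further agent, CL1-5 is a subline related to CL1-0, and the spread reported below is the spread between lines.

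Type I and type III interferons bind cell surface receptors and activate the transcription factor complex ISGF3, of which IRF9 is a part. ISGF3 binds a short promoter element, the interferon-stimulated response element, and turns on a large set of antiviral genes. The IFIT proteins bind viral or otherwise foreign RNA, ISG15 is a ubiquitin-like protein that is attached to other proteins, MX1 is a dynamin-like GTPase that blocks viruses, and IFI6 and IFI27 are small membrane proteins of the same family. IFI44 and IFI44L are a pair of related genes that interferon raises strongly. Related genes such as IFI44 and IFI44L, IFIT1 and IFIT1B, IFI27 and IFI27L2, or MX1 and MX2 may share reads, and how the counting divided such reads is not given in the sources used here.

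On GRCh37, IFIT2 (91043451 to 91069028), IFIT3 (91087064 to 91137230), IFIT1 (91152303 to 91166244) and IFIT5 (91174325 to 91181362) lie in a row on chromosome 10. ISG15 (936518 to 949920), IFI6 (27992575 to 27998723), IFI44L (79085587 to 79111830) and IFI44 (79115481 to 79129763) are on chromosome 1, IFI27 (94571182 to 94583032) is on chromosome 14 and MX1 (42791947 to 42841998) is on chromosome 21. All 10 are protein-coding genes in the GENCODE annotation, and IFI6 alone is on the minus strand. The promoter windows of RefSeq, 300 bases around each start site, were available for 9 of the 10, and IFIT2 was not in that table. The core of the response element, searched on both strands as GAAA, any 2 bases and GAAA, was in a window of 9 of these 9 genes, whereas 4.38% of the 27305 genes in the table held it. The following stretches of 30 bases are shown because they hold that element in each gene. They are RefSeq sequences (GRCh38.p14 table) placed on GRCh37 by exact match, they read 5′ to 3′ along the gene's strand, and capitals mark the match, which appears as TTTC, any 2 bases and TTTC where it lies on the opposite strand.
ISG15: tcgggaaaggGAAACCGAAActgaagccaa
IFI6: ggagagagggGAAAATGAAActgcagagtg
IFI27: cggtttcctgGAAAATGAAAcctatctcat
IFIT1: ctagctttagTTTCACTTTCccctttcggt
IFIT3: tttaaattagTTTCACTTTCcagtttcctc
IFIT5: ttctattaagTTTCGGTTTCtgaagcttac
IFI44: gcacactgagTTTCAGTTTCctttctctga
IFI44L: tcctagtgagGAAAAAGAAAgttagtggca
MX1: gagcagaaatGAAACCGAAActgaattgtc

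The capitals of ISG15 lie at chr1:948770-948779, those of IFI27 at chr14:94576987-94576996, those of IFIT1 at chr10:91152264-91152273 and those of MX1 at chr21:42792496-42792505. The ISG15 and MX1 windows hold the same 10 letters, GAAACCGAAA, and IFI6 and IFI27 share GAAAATGAAA. Several windows hold the element more than 1 time, with 3 matches in IFI6 and 3 in IFIT5, and the pair in ISG15 overlaps. A further interferon-related element, TTC, any 3 bases and GAA, was in 2 of the 9 genes, IFI27 and MX1, and in 9.38% of all genes. The windows differed in CpG, the dinucleotide that DNA methyltransferases modify. IFI44 and IFI44L had 0 CpG in their windows, IFIT1 had 4, IFI6 had 9, IFIT5 had 16 and ISG15 had 20, beside a median of 14 over all 35116 windows. A match of letters or a number of CpG describes the sequence, and no binding or methylation was measured in the files used here.

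Across all libraries, the FPKM values returned whole reads, 22234485 to 25303899 per library in 5 lines and 52634234 to 59735913 in H1299. In H1299 81.9% to 85.5% of the read numbers from 1 to 20 were even, against 39.2% to 41.5% elsewhere, so no counting interval is given for H1299. The summed FPKM of 5 epithelial markers ranged from 0.986 in CL1-0 to 3015 in A549 among Mock libraries, and in CL1-0 KRT8 was at 0.154 FPKM, KRT18 at 0.118 FPKM and KRT19 at 0 FPKM, so that the epithelial keratins were nearly absent there. In H1299 the same sum was 111 FPKM in Mock and 669 FPKM after DAC. The sum of 6 leukocyte markers was 0.664 to 8.64 FPKM in all libraries, with CD14 in A549 the main part, and PTPRC never passed 0.0759 FPKM. In a bulk library fewer expressing cells and less RNA per cell cannot be told apart.

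The first comparison asked, line by line, which of the effectors were higher after DAC. A member was called higher when log2(FPKM + 0.1) rose by at least 1, that is 2-fold, and the 22603 genes whose mean FPKM reached 0.1 were scored in the same way. With 1 library per line and treatment no test was possible within a line. In CL1-5, 10 of the 10 members passed, where 7.25% of all genes did. In A549, 9 of 10 passed (15.5% of all genes), and in H1299, 7 of 10 (8.18%). In PC9 2 of 10 passed (10.2%), in H1792 2 of 10 (10.3%) and in CL1-0 0 of 10 (7.6%). No member was 2-fold lower in any of the 6 lines, where the shares of all genes were 5.05% in CL1-5, 6.69% in A549, 3.15% in H1299, 3.1% in PC9, 5.79% in H1792 and 2.14% in CL1-0.

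The share of all genes that rose 2-fold in CL1-0, where no member did, was close to the share in CL1-5, where every member did, with 1717 and 1639 genes. The median change of the 10 members was 3.22 in A549, 3.03 in CL1-5, 1.33 in H1299, 0.49 in PC9, 0.18 in H1792 and −0.08 in CL1-0 on the log2(FPKM + 0.1) scale. The median over all genes was between 0.00 and 0.07 in these lines. The summed FPKM of the 10 members went from 256 to 2442 in CL1-5, from 17.8 to 199 in A549 and from 60.4 to 169 in H1299. It went from 12.4 to 22.4 in PC9, from 64.9 to 109 in H1792 and from 98.4 to 79.7 in CL1-0.

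**Figure D1:**
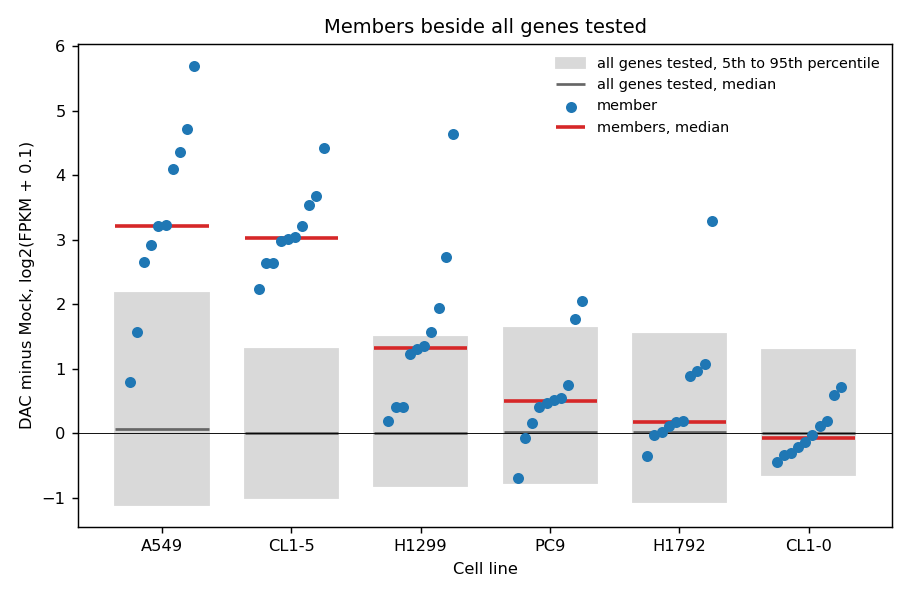
Change after DAC on the log2(FPKM + 0.1) scale for each of the 10 members (blue points, sorted within a line) in 6 lines, beside the 5th to 95th percentile of all 22603 genes scored (grey box, with their median) and the median of the members (red line). In CL1-5 all 10 points lie above the box, in A549 8 do, in H1299 4, in PC9 2, in H1792 1 and in CL1-0 0.

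Among the ubiquitin-like and small membrane effectors, ISG15 was the most abundant member in 9 of the 12 libraries. ISG15 was at 114 FPKM in Mock and 1062 FPKM after DAC in CL1-5, at 2.48 and 67.5 FPKM in A549, and at 24.5 and 60.9 FPKM in H1299. In H1792 it was at 20.8 and 40.9 FPKM, in PC9 at 6.33 and 10.7 FPKM, and in CL1-0 at 75.2 and 60.7 FPKM. A549 therefore had the lowest ISG15 level of the Mock libraries and the second highest after DAC, and in CL1-0, with the second highest level in Mock, it was lower after DAC. The ratio was 27.2 in A549, with a 95% exact counting interval of 20.6 to 36.9, and 9.28 in CL1-5 (8.93 to 9.64), whereas in CL1-0 it was 0.806 (0.753 to 0.863). These intervals cover the counting of reads and not the variation between cultures.

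IFI6, which resides in mitochondrial and endoplasmic reticulum membranes, was at 72.9 FPKM in Mock and 851 FPKM after DAC in CL1-5 and at 7.77 and 73.5 FPKM in A549. It was at 1.56 and 5.54 FPKM in PC9, at 15.4 and 32.7 FPKM in H1792, at 20.9 and 27.8 FPKM in H1299 and at 20.3 and 16.0 FPKM in CL1-0. IFI6 passed 2-fold in 4 of 6 lines, including PC9 and H1792, but not in H1299, where its log2 change was 0.41. In H1299 the members with the highest changes were IFI27 and IFIT3.

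On the log2(FPKM + 0.1) scale IFI27 had the highest change of the 10 members in each of the 6 lines. As a plain ratio it was not the highest in A549 and CL1-0, where IFI44 had 106 and 3.99 from 1 Mock read each. Nor was it in CL1-5, where IFI44L had 33.3. IFI27 was at 0.282 FPKM in Mock and 19.7 FPKM after DAC in A549, at 1.29 and 29.7 FPKM in CL1-5, and at 0.0718 and 4.19 FPKM in H1299. In H1792 it was at 0.283 and 3.65 FPKM, in CL1-0 at 0.174 and 0.351 FPKM, and in PC9 at 0 and 0.313 FPKM. The Mock libraries held 0 to 145 IFI27 reads, the most in CL1-5, and after DAC the gene was higher in 6 of 6 lines and by at least 2-fold on the scale used here in 5 of 6. The ratio was 70.0 in A549 (95% counting interval 47.3 to 108), 23.0 in CL1-5 (19.5 to 27.4), 12.9 in H1792 (8.83 to 19.5) and 2.02 in CL1-0 (1.13 to 3.77). In PC9 the Mock library held 0 reads and the DAC library 30. Against a floor of 3 reads in the Mock library IFI27 was 8.98-fold higher there, and its 95% counting interval starts at 6.86. H1792 stands out because IFI27 changed by 3.29 on the log2 scale there while the other 9 members lay between −0.35 and 1.08.

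**Figure D2:**
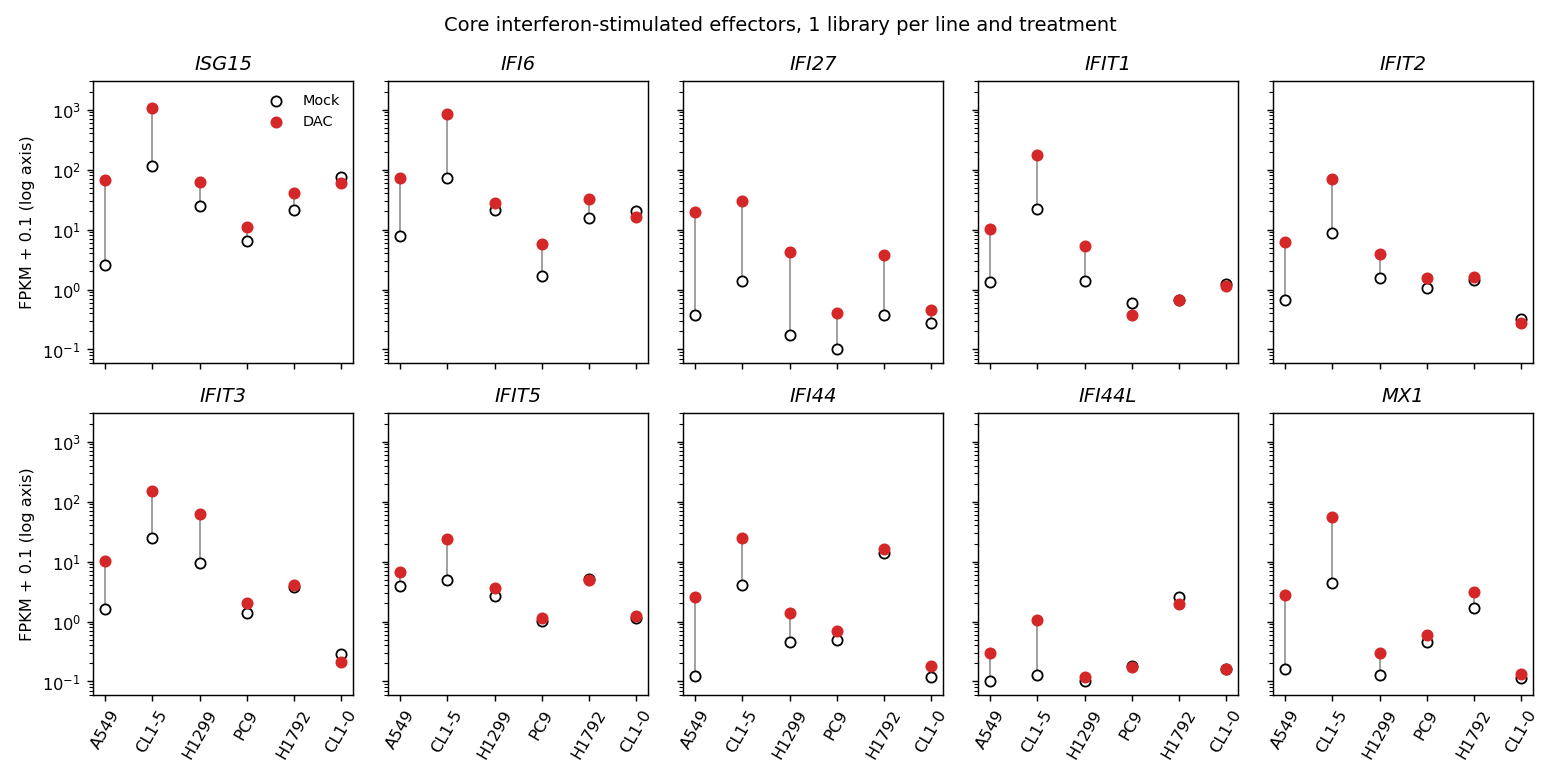
FPKM + 0.1 on a log axis for the 10 effectors in 6 lung cancer lines, with Mock as open and DAC as filled circles, 1 library each, so no error bar can be drawn. ISG15 reached 1062 FPKM in CL1-5 after DAC, while IFI44L stayed under 3 FPKM in every library.

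The IFIT genes, which share a cluster, did not move as a block in every line. IFIT1 was at 21.8 FPKM in Mock and 173 FPKM after DAC in CL1-5, at 1.23 and 10.0 FPKM in A549 and at 1.29 and 5.21 FPKM in H1299. It was at 1.16 and 1.05 FPKM in CL1-0, at 0.559 and 0.569 FPKM in H1792 and at 0.501 and 0.272 FPKM in PC9. The PC9 ratio of 0.543 had a counting interval of 0.330 to 0.878, below 1, so IFIT1 was the only IFIT gene whose interval lay under 1 in a line. IFIT2 was at 8.49 and 69.6 FPKM in CL1-5, 0.569 and 6.12 FPKM in A549, and 1.44 and 3.82 FPKM in H1299. In PC9 it was at 0.974 and 1.47 FPKM, in H1792 at 1.36 and 1.54 FPKM and in CL1-0 at 0.217 and 0.173 FPKM, the last from 21 reads in each library. IFIT2 thus moved with IFIT1 in the first 3 lines and in the other direction in PC9.

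IFIT3, which binds IFIT1 and strengthens its hold on RNA, was at 24.3 FPKM in Mock and 152 FPKM after DAC in CL1-5, at 1.54 and 10.2 FPKM in A549 and at 9.23 and 61.8 FPKM in H1299. The level in PC9 was 1.294 and 1.898 FPKM, that in H1792 3.60 and 3.91 FPKM, and that in CL1-0 0.193 and 0.115 FPKM. In H1299 after DAC, IFIT3 was the most abundant member, at 1.02 times the ISG15 FPKM, while in the other DAC libraries this ratio was between 0.00190 and 0.177. IFIT5, at the right end of the cluster, changed least of the 4. It was at 4.92 FPKM in Mock and 23.5 FPKM after DAC in CL1-5 and at 3.84 and 6.73 FPKM in A549. In H1299 it was at 2.61 and 3.52 FPKM, in H1792 at 4.94 and 4.83 FPKM, in CL1-0 at 1.04 and 1.14 FPKM and in PC9 at 0.923 and 1.04 FPKM. IFIT5 passed 2-fold in CL1-5 alone, and it is the member that did not pass in A549, where its change was 0.79 on the log2 scale.

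MX1 was at 4.30 FPKM in Mock and 56.3 FPKM after DAC in CL1-5, at 0.0596 and 2.62 FPKM in A549, and at 1.56 and 2.98 FPKM in H1792. It was at 0.352 and 0.501 FPKM in PC9, at 0.0264 and 0.195 FPKM in H1299 and at 0.0147 and 0.0314 FPKM in CL1-0. MX1 was higher in 6 of 6 lines, though not in CL1-0 after quantile normalization, and by at least 2-fold in 3, and its ratio of 44.1 in A549 (24.4 to 88.7) rested on 11 and 572 reads. In CL1-0 MX1 had 3 reads in Mock and 8 after DAC, a ratio of 2.13 with a counting interval of 0.510 to 12.4.

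IFI44 and IFI44L were set apart by H1792, where both were high before treatment. IFI44 was at 13.9 FPKM in Mock and 15.8 FPKM after DAC in H1792, at 3.91 and 24.8 FPKM in CL1-5 and at 0.0229 and 2.42 FPKM in A549. It was at 0.360 and 1.26 FPKM in H1299, 0.401 and 0.594 FPKM in PC9 and 0.0208 and 0.0829 FPKM in CL1-0. The A549 values come from 1 and 125 reads, a ratio of 106 with a counting interval of 18.7 to 4216. IFI44L was at 2.43 FPKM in Mock and 1.88 FPKM after DAC in H1792, a ratio of 0.774 (0.685 to 0.875), and at 0.0288 and 0.961 FPKM in CL1-5, a ratio of 33.3 (16.7 to 78.1). In A549 the Mock library held 0 IFI44L reads and the DAC library 51. That was 14.4-fold higher against a floor of 3 reads, with a counting interval that starts at 11.3. In PC9 (0.0799 and 0.0717 FPKM) and CL1-0 (0.0620 and 0.0594 FPKM) IFI44L rested on 15 to 18 reads per library, and in H1299 it had 2 and 10 reads.

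**Figure D3:**
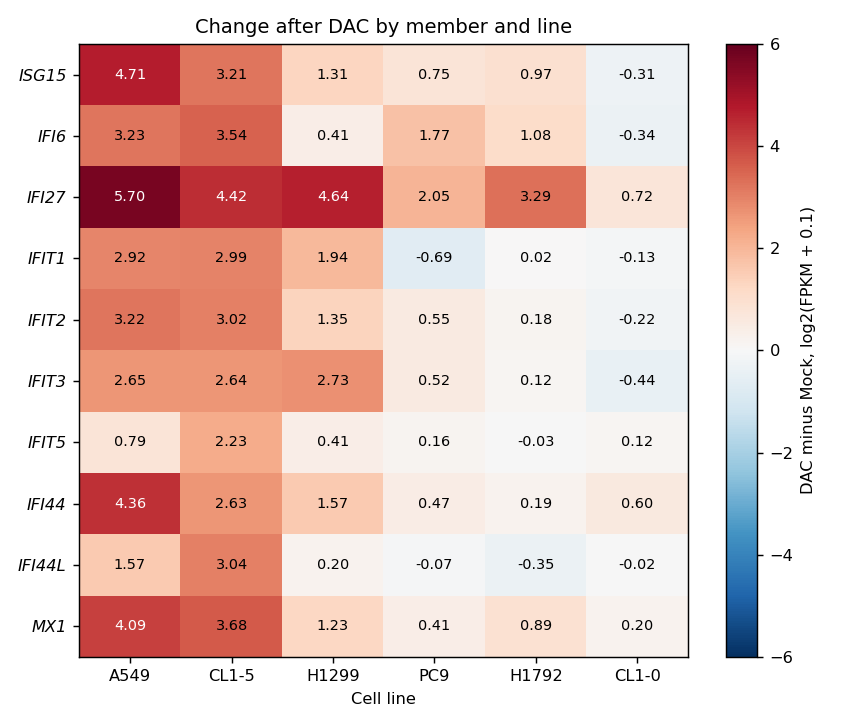
Change after DAC (DAC minus Mock) on the log2(FPKM + 0.1) scale for each of the 10 effectors (rows) in 6 lines (columns), with red for higher and blue for lower. The values run from 5.70 for IFI27 in A549 to −0.69 for IFIT1 in PC9.

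The levels before treatment followed another order than the changes. CL1-5 had the highest Mock FPKM for 7 of the 10 members and H1792 for the other 3, which were IFIT5, IFI44 and IFI44L. CL1-0, related to CL1-5, had the second highest ISG15 level in Mock and the lowest IFIT2, IFIT3, IFI44 and MX1 levels. ISG15 and IFI6 together made up 97.1% of the summed member FPKM in Mock CL1-0 cells, and 55.9% to 75.1% in the other Mock libraries. After DAC, CL1-5 was highest for 9 of the 10 members, IFI44L being the exception, and CL1-0 or PC9 was lowest for 9, the exception again being IFI44L, which was lowest in H1299. Because each position rests on 1 library, the order of neighbouring lines has no replicate check.

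The second comparison asked whether the effectors changed with the lines taken as replicates, H1792 left out to keep the 5 lines that the study used, in a limma fit across all 22603 genes with the line as a block. Over all 6 lines, H1792 included, the FPKM ranges of Mock and DAC overlapped for all 10 members. That comparison leaves the pairing by line aside, and the share of all genes that overlap was not counted. No member passed a Benjamini-Hochberg adjusted p of 0.05 in limma, where 27 genes were higher (0.119%) and 0 were lower, and at an unadjusted p under 0.05 there were 1825 higher (8.07%) and 994 lower genes. Without A549 or without CL1-5 the number of higher genes was 0, without CL1-0 it was 5, and without PC9 it was 12. IFI27 had the highest member estimate, 3.51 on the log2(FPKM + 0.1) scale (SE 0.69, limma adjusted p = 0.175, higher in 5 of 5 lines). ISG15 followed with 1.94 (SE 0.67, limma adjusted p = 0.331, higher in 4 of 5 lines), IFI44 with 1.93 (SE 0.56, limma adjusted p = 0.283, higher in 5 of 5) and MX1 with 1.92 (SE 0.63, limma adjusted p = 0.321, higher in 5 of 5).

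The estimates of IFI6, IFIT3, IFIT2 and IFIT1 were 1.72, 1.62, 1.58 and 1.40 on the same scale, and those of IFI44L and IFIT5 were 0.94 and 0.74. Without CL1-5 the estimate of IFIT5 was 0.37, and without A549 that of ISG15 was 1.242. The adjusted p-values of the 10 members in limma were between 0.175 and 0.458, and 9 of the 10 had an unadjusted p under 0.05, the exception being IFI44L. The median of the 10 estimates was 1.67 and that over all genes 0.07. In a limma voom fit on the recovered reads, IFI27 (log2 fold change 4.91, adjusted p = 0.0139), IFIT3 (2.44, adjusted p = 0.0187) and MX1 (3.32, adjusted p = 0.0324) passed. In that fit 199 of all 22603 genes were higher and 0 were lower. It includes the H1299 reads, whose mostly even numbers kept them from a counting interval above. The difference between lines was not tested, because no line has a second library.

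The spread between lines is visible in the means of FPKM. The mean for ISG15 over the 5 lines was 44.6 ± 48.6 FPKM in Mock and 252 ± 453 FPKM after DAC (SD, n = 5). For IFIT1 it was 5.19 ± 9.27 and 38.0 ± 75.7 FPKM, and for IFI27 0.364 ± 0.530 and 10.9 ± 13.2 FPKM (SD, n = 5). In the Mock and in the DAC libraries alike each SD exceeds its mean, and CL1-5 supplies the highest value of each of these genes.

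Among scored genes with a symbol, those with the profile most like that of the effectors were sought over the 12 libraries. The measure was the correlation of log2(FPKM + 0.1) with the mean of the 10 members. As a description of libraries that share lines, Pearson's r was 0.966 for OAS2, which makes the 2-5A that activates RNase L, 0.965 for DDX58, which encodes the RNA sensor RIG-I, and 0.929 for IRF7, an interferon regulatory factor. TAP1, a peptide transporter of antigen presentation, had 0.901 and IFIH1, which encodes the RNA sensor MDA5, had 0.897. OAS2 was at 5.34 FPKM in Mock and 76.6 FPKM after DAC in CL1-5 and at 0 and 0.0108 FPKM in CL1-0. CL1-5 was also the highest line after DAC for 9 of the 10 members, while CL1-0 was the lowest for 4. Each member was also set against the mean of the other 9, and r ran from 0.453 for IFI44L to 0.914 for IFIT2.

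A list of 35 other interferon-stimulated genes was counted by the same rule. In CL1-5 34 of the 35 were at least 2-fold higher and in A549 30, while 10 were in H1299, 6 in H1792, 5 in PC9 and 3 in CL1-0. The shares of all genes, against which these and the counts of the lists and neighbours that follow are to be read, were the 7.25%, 15.5%, 8.18%, 10.3%, 10.2% and 7.6% given above for these lines, and the 3 in CL1-0 lie near that share. In limma 1 of the 35 passed, BST2, the tether that holds budding virus at the cell surface (log2 fold change 4.57, SE 0.44, adjusted p = 0.0255). BST2 went from 0.265 to 6.94 FPKM in CL1-0 and from 0.0860 to 6.99 FPKM in PC9, the lines with 0 and 2 called effectors. EIF2AK2, the kinase PKR, had the lowest estimate of the list (0.30, adjusted p = 0.654), and IFITM3, which blocks virus entry, had the highest DAC level (444 FPKM in CL1-5). The median estimate of the 35 was 1.12. So H1299 had a called share of 7 in 10 among the core effectors and 10 in 35 on this list, a difference that was not tested.

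Of the enzymes that attach or remove ISG15, 4 of 4 were 2-fold higher in CL1-5, 2 of 4 in A549, 1 of 4 in PC9, H1299 and H1792 and 0 of 4 in CL1-0, and none passed in limma. UBA7, the activating enzyme, was at 0.122 FPKM in Mock and 2.211 FPKM after DAC in CL1-5, and USP18, which removes ISG15, was at 5.30 and 35.0 FPKM there. In CL1-0, where ISG15 itself was abundant, USP18 was at 10.1 and 7.995 FPKM and HERC5, the main ligase, at 3.40 and 2.97 FPKM.

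Among 9 receptors, kinases and ISGF3 subunits, none passed in limma, 2 were 2-fold higher in A549 and 1 in CL1-5, and none was in the other 4 lines. IRF9 was listed at 0 in both H1299 libraries, and at 0.159 to 3.08 FPKM elsewhere. How reads of genes that overlap IRF9 were counted is not stated, so a listed 0 does not show that the gene is silent. Of 5 interferon regulatory factors none passed in limma, and IRF7 was at 6.68 and 32.7 FPKM in CL1-5 and at 1.28 and 9.21 FPKM in A549, while IRF1 was at 7.92 and 33.4 FPKM in H1299.

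The interferon genes were at low levels throughout. The sum over 8 of them was 0.166 to 0.840 FPKM in Mock and 0.786 to 7.88 FPKM after DAC, with the highest in CL1-5, and 0 of the 4 that could be scored passed in limma. IFNL1, a type III interferon, was at 0.129 FPKM in Mock and 2.11 FPKM after DAC in CL1-5, at 0 and 0.277 FPKM in A549 and at 0 and 0.618 FPKM in H1299. IFNL1 was listed at 0 in both libraries of PC9 and of H1792, but was at 0.840 and 1.30 FPKM in CL1-0, where no effector passed. IFNB1 did not exceed 0.0959 FPKM in any library. Of 6 genes of nucleic acid sensing and of 3 DNA methyltransferase genes none passed in limma, with DNMT3B at 0.98 on the log2 scale (SE 0.16, adjusted p = 0.110).

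The nearest scored gene with a symbol on each side of the 6 member clusters, leaving out genes that overlap a cluster, gave 12 neighbours. Measured between annotated spans and not between start sites, they lay between 966 and 2642069 bp away. In CL1-5, 2 of these 12 were at least 2-fold higher, MX2 and LINC00479, which lie 10627 and 289682 bp from MX1, and the same 2 were in A549. In CL1-0 0 of 12 were, and 4 of 12 in each of PC9, H1299 and H1792. HES4, 966 bp from the annotated span of ISG15, had log2 changes of 0.02 in A549 and 0.75 in CL1-5, where those of ISG15 were 4.71 and 3.21. That span starts at 936518, whereas the RefSeq start of ISG15 lies further from HES4, at 948877. HES4 passed 2-fold in H1299 (2.49), H1792 (1.71) and PC9 (1.23), where ISG15 had 1.31, 0.97 and 0.75, and both were lower in CL1-0 (−0.89 and −0.31). IFI27L1 and IFI27L2, the relatives of IFI27 that flank it, had log2 changes of −0.85 and −0.65 in A549 and of −0.15 and −0.09 in CL1-5. In H1792 they had 0.89 and 1.09 and in PC9 0.41 and 1.63, so that IFI27L2 passed 2-fold in both of these lines. LIPA, an acid lipase gene whose annotated span overlaps the IFIT cluster and that was picked after its values were seen, had a log2 change from −0.39 to 0.23 in the 6 lines. IFIT1B, which also overlaps that cluster, had 1.59 in H1299, 0.50 in CL1-5 and 0 elsewhere. TMPRSS2, whose span overlaps MX1, had 2.47 in H1792, 1.05 in PC9 and −0.16 to 0.39 in the other lines.

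The third comparison used the Omni-ATAC-seq peak lists to ask whether the effectors had an open promoter before DAC and whether one was gained or lost. The labels and the file names exchange CL1-5 and PC9, and the libraries are taken by their labels. Some 98 genes were at 10 FPKM or more in Mock PC9 cells and under 0.1 FPKM in CL1-5, and 93.9% of these had an open promoter under the label CL1-5 against 51.0% under the label PC9. For 36 genes with the opposite expression the shares were 44.4% and 63.9%. Expression therefore matched the other label. No comparison below joins mRNA and chromatin of these 2 lines, except for IFI27, whose mRNA was higher after DAC in both.

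A promoter peak was a broad peak within 3000 bp of an annotated start, and 83.6% to 89.4% of 16977 genes had one in each library. Of the 10 members, 7 had one in Mock A549 cells and 9 after DAC, with 7 and 9 again in H1299. Under the label CL1-5 the counts were 6 and 6, and under the label PC9 they were 8 and 7. IFI27 and IFI44L were the 2 members that gained a peak in A549 (3.81% of all genes gained and 1.52% lost one) and also in H1299 (3.95% and 1.54%). Under the label CL1-5, IFIT1 gained and IFI44 lost a peak (2.8% and 1.96% of all genes), and under the label PC9 IFI27 lost one (3.24% and 1.23%). At a q-value under 0.01 the H1299 counts were 5 and 4 instead, and neither the IFI27 nor the IFI44L peak of the H1299 DAC library (−log10 q of 1.89 and 1.65) passed. The peaks behind the changes of IFIT1 and IFI44 under the label CL1-5 (1.63 and 1.38) and of IFI27 under the label PC9 (1.52) did not pass either. The counts were then 5 and 5 under the label CL1-5 and 7 and 7 under the label PC9. The number of peaks per library also rose after DAC, from 58734 to 78199 in A549 and from 45354 to 63541 in H1299. With equal numbers of peaks kept in the 2 libraries of a line, the strongest first, the counts were 7 and 9 in A549 and 7 and 8 in H1299. Within 1000 bp of a start they were 7 and 8 in both lines.

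**Figure D4:**
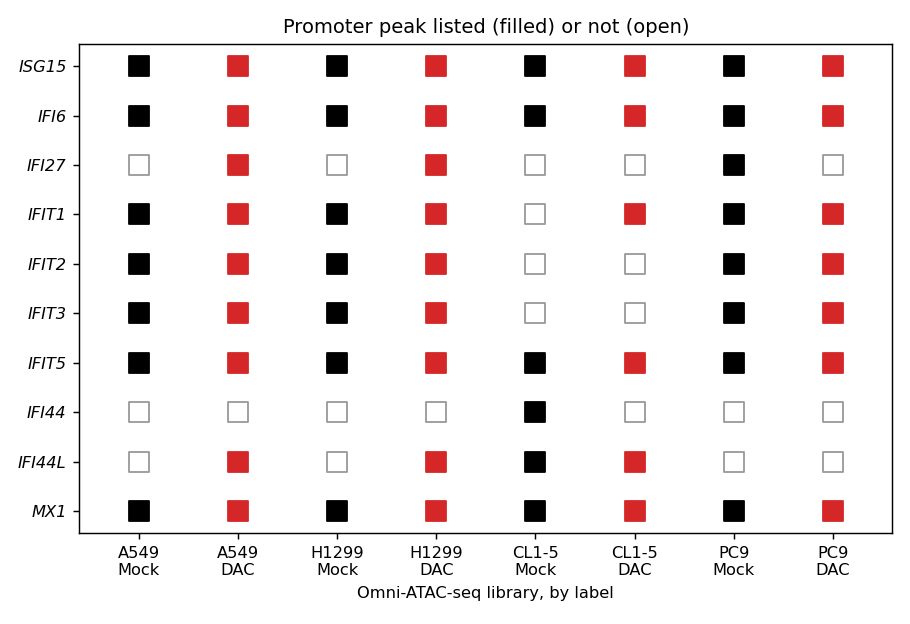
Presence (filled) or absence (open) of a broad Omni-ATAC-seq peak within 3000 bp of an annotated start for the 10 effectors (rows) in 8 libraries (columns, by label, Mock in black and DAC in red). IFI27 and IFI44L are open in Mock and filled after DAC in both A549 and H1299, while ISG15, IFI6, IFIT5 and MX1 are filled in all 8.

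The IFI27 peak of the A549 DAC library (chr14:94576990-94577289, fold enrichment 3.81, −log10 q of 3.37) and that of the H1299 DAC library (chr14:94577041-94578240, 2.43, −log10 q of 1.89) both covered the RefSeq start of the gene. In the same 2 lines the IFI27 mRNA went from 0.282 to 19.7 FPKM and from 0.0718 to 4.19 FPKM. The IFI27 mRNA was also higher after DAC in CL1-5 (1.29 to 29.7 FPKM) and PC9 (0 to 0.313 FPKM). Neither label gained an IFI27 peak: it was absent from both libraries labelled CL1-5 and lost under the label PC9, where the Mock peak was weak (−log10 q of 1.52). The IFI44L peaks of the A549 and H1299 DAC libraries (chr1:79083320-79083527 and chr1:79083339-79083644) lay upstream of the gene. No peak covered the RefSeq start of IFI44L or IFI44 in any of the 8 libraries. In both libraries labelled CL1-5, however, a peak covered another annotated start of IFI44L. IFI44 had no peak in either A549 library although its mRNA went from 1 to 125 reads.

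ISG15 and IFI6 had their RefSeq start and all their matches to the response element inside a peak in 8 of 8 libraries, Mock included. The printed IFIT1 match was inside a peak in 6 of 8 libraries, the 2 without being those labelled CL1-5. The printed matches of IFIT5 and MX1 were inside a peak in 7 of 8, and those of IFI44 and IFI44L in 0. The printed IFI27 match was inside a peak in 0 of 8 and was touched by 1, the A549 DAC peak. IFIT2 and IFIT3 had no promoter peak in the libraries labelled CL1-5 and had 1 or more in the other 6. By fold enrichment the members ranked low, with a median percentile of 21.6 to 28.4 among all genes of a library, and IFI6 ranked highest, at 93.9 in Mock A549 cells. For ISG15 the strongest peak lay at an upstream annotated start near HES4 in 6 of the 8 libraries.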

How the data were processed

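mRNA-seq (12 libraries) and Omni-ATAC-seq (8 libraries) took their line and treatment from the labels. The members and gene lists were chosen with earlier results of these data known. The authors aligned mRNA-seq reads to hg19, counted them per gene and deposited FPKM values normalized with DESeq2. The paper names RSEM and bowtie2 as aligners, whereas the submitters' processing notes name TopHat2 2.1.1, BWA 0.7.17-r1188, DESeq2 1.24.0, Picard 2.21.4, SAMtools 1.9, MACS2 2.2.5 and ChIPseeker 1.20.0. The mean normalized signal that the authors deposited per gene was used to recover reads, and 100% of the values came out whole. The tolerance was 0.01 of a read and widened in proportion for genes with many reads, so the highest values could not fail. The authors' own log2 fold changes, test scores and p-values in that table were not used. For each broad peak the authors deposited a score, the fold enrichment over background, and p- and q-values as −log10, all from MACS2. The depth of each Omni-ATAC-seq library is unknown, so fold enrichments were ranked within a library. The number of value columns without a sample was 0.

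FPKM values were analysed as log2(FPKM + 0.1), which understates the change of low genes, for 22603 genes with a mean of at least 0.1 over the 10 libraries of 5 lines. The limma 3.58.1 fit (R 4.3.3) had the line as a block, an intensity trend and Benjamini-Hochberg adjustment at 0.05. Centred by treatment, the Mock and DAC libraries of a line had a correlation of 0.731 to 0.900, and libraries of different lines at most 0.115. According to the study's reporting summary, the cells of each treatment came from the same parental culture, so the block is part of the design. Nothing says that the libraries were repeated cultures, and p-values measure the spread between lines. CL1-5 and CL1-0 are related, so the 5 lines are not fully independent replicates. On simulated data the fit was tested before use. Counting intervals (95%, exact) and the floor of 3 reads cover counting error only, and reads are not independent molecules.

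All 10 members are named, and 1 gene of another list is not reported here. Of each other list at most 4 genes are named, by the highest and lowest change and the highest DAC level, or any gene of lists of up to 9, and of genes with a like profile the 5 with the highest r. Alternatives were the addition of H1792, no block, other pseudocounts, filters, scalings and folds, voom on recovered reads, each line left out, and other peak settings. Promoter sequences are from RefSeq (9 of 10 members matched), positions from a GENCODE annotation of GRCh37. Python 3.11.15 with numpy 2.4.6, scipy 1.17.1, pandas 2.3.3 and matplotlib 3.10.9 was used.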

Additional observations from a re-analysis of the deposited data

Results flagged for a closer look

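In 14 of 30 groups of 6 lines (the FPKM in Mock, the FPKM after DAC and the log2 change of each member), 1 line stood far from the others, and chance alone flags about 1 in 20 groups of independent, normally distributed values. FPKM is skewed and the members move together, so the 14 cannot be read against that rate. In Mock, CL1-5 was far above the other 5 lines for IFIT1 (21.8 FPKM), IFIT2 (8.49 FPKM), IFI6 (72.9 FPKM), IFI27 (1.29 FPKM) and MX1 (4.30 FPKM), and H1792 was for IFI44 (13.9 FPKM) and IFI44L (2.43 FPKM). After DAC, CL1-5 was far above the others for IFIT1 (173 FPKM), IFIT2 (69.6 FPKM), IFIT5 (23.5 FPKM), ISG15 (1062 FPKM), IFI6 (851 FPKM) and MX1 (56.3 FPKM). The log2 change of IFIT5 stood apart in CL1-5, at 2.23.

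For 4 members the counting interval of the ratio lay above 1 in some lines and below 1 in another, a difference between lines that was not tested because each line has 1 library per treatment. IFIT1 was higher in A549 and CL1-5 and had a log2 change of −0.69 in PC9. ISG15 was higher in A549, CL1-5, PC9 and H1792 and had a change of −0.31 in CL1-0, and IFI6 was higher in the same 4 lines and had −0.34 in CL1-0. The intervals follow the deposited scaling and were not computed under another. In CL1-0 the FPKM of all genes summed to 346387 in Mock and 305528 after DAC. IFI44L was higher in A549 and CL1-5 and had −0.35 in H1792.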

How the results depend on the processing

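No estimate of a member changed sign over the 5 lines in any alternative that was run, and 135 of 138 stayed on the same side of the threshold. The other 3 passed with voom on recovered reads, IFIT3 (2.44), IFI27 (4.91) and MX1 (3.32). IFI44L could not be scored without CL1-5 or at a mean FPKM of at least 1. The 27 higher genes became 53 with H1792 added, 0 with a pseudocount of 1, 2 with no filter, 17 after quantile normalization, 199 with voom, and 0 to 22 with each line left out; the lower genes numbered 0 to 1 with each line left out. Without the replicate block there were 10 higher genes, and the block changed no call of a member. Of the members at least 2-fold higher, a pseudocount of 1 gave 8 in A549, 9 in CL1-5, 1 in PC9 and 4 in H1299. A pseudocount of 0.01 gave 1 in CL1-0 and 8 in H1299. Rescaling to a common sum gave 10 in A549 and 1 in H1792, and quantile normalization gave 5 in H1299. A 1.5-fold limit gave 2 in CL1-0 and 4 in H1792, and a 4-fold limit gave 1 in PC9, 2 in H1299 and 1 in H1792. Rescaling moved the median of all genes to 0.36 in A549, 0.16 in CL1-0 and 0.16 in PC9, relative to which the members' medians were 3.18, −0.12 and 0.47. It turned the sign of 5 small changes (IFIT1 and IFI44L in CL1-0, IFI44L in PC9, IFIT1 and IFIT3 in H1792), and quantile normalization that of 5 (IFIT5 and MX1 in CL1-0, IFIT5 in PC9, IFI44L in H1299, IFIT1 in H1792). With peaks at a q-value under 0.01, 4 members had a promoter peak in the H1299 DAC library and 5 in Mock. Counting only peaks the authors list for a gene, an alternative chosen after seeing the data, gave 8 in the A549 DAC library and 6 in the DAC library labelled PC9. With 1 library per line and treatment, depth limits IFI44L, MX1 and IFI44 in CL1-0, which rested on 1 to 18 reads. The cause of these shifts was not tested.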
